A study of Mus musculus with 14 samples.

Results

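The Nfib and Nfia loci are 2 stretches of mouse chromosome 4, each 600 kb long, around the genes of the transcription factors nuclear factor I/B and nuclear factor I/A. Their members are regions of a deposited SOX10 ChIP list in mm9 coordinates that overlap chr4:81900000-82500000 (Nfib, 29 regions) or chr4:97300000-97900000 (Nfia, 15 regions). These 44 regions made up 0.555% of the 7929 regions of the list and 5.27% of the 835 regions on chromosome 4. The Nfib locus was chosen by the number and spacing of its regions, since it holds the run with the most regions of the list, and the Nfia locus was set beside it. Number, spacing, width and signal all come from that same list and are given as a description, without a test.

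The list came from 2 SOX10 ChIP samples and 1 control sample of PY230 tumors, out of 14 samples in the series. PY230 is a mouse mammary tumor cell line that derives from a mammary tumor driven by the polyoma middle T antigen. According to the labels, cells of this line were transplanted into mice of the same background (C57BL6J, adult) and the resulting mammary tumors were dissected and sorted. In the ChIP samples the tumor cells carried SOX10 with an AVI tag, a short peptide, and BirA, the enzyme that attaches biotin to it. Both the ChIP samples and the control were pulled down on streptavidin beads with washes in SDS. The labels do not say what drives the tagged SOX10, how many tumors or clones were used, or whether the control cells carry BirA. The list holds no expression values, so the labelled tissue was not checked against marker genes.

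SOX10 is a transcription factor with an HMG box, best known for its role in neural crest cells, glia and melanocytes. The nuclear factor I family, formed in the mouse by Nfia, Nfib, Nfic and Nfix, encodes factors that bind palindromic DNA sites as dimers and act at promoters and distal enhancers. NFIA is known as a factor of gliogenesis in the developing nervous system. NFIB is known from lung and brain development, and nuclear factor I sites are a long-known element of milk protein gene promoters in the mammary gland.

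The locus names follow the rule by which the windows were chosen, and the windows were not compared with mm9 gene models, which were not used here. In a gene table of another build (RefSeq, GRCm38.p6), both genes lie on chromosome 4, as the only members of their family there. In the order of that table, Nfib stands between the protein-coding genes Mpdz and Zdhhc21, and Nfia between Gm12695 and Tm2d1. 82 protein-coding genes separate Nfib from Nfia. Nfic was listed on chromosome 10 and Nfix on chromosome 8 and their regions were not analysed here, because their mm9 positions were not at hand. Whether a region lies in a promoter, exon or intron was not determined, and no DNA sequence of a region is shown, for the same reason.

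The deposited signal has no stated unit. Its values behave as a mean coverage per base, in which signal times width comes in whole steps of 0.0479 for 100% of 7282 regions under 1500 bp and above 0 (tolerance 0.05). Dividing signal times width by this step and by 54 bases gives what is called read equivalents here. The step is inferred from the values, whereas the 54 bases were a fixed setting with which all read equivalents scale. Ratios and shares of read equivalents do not depend on it. The authors deposited no read counts with the values. The list is labelled as ChIP-ctrl signal, which may mean that the control was subtracted. The formula is not stated, so read equivalents may be net of the control. In the list 65 regions had a signal of exactly 0, none of them at the Nfib or Nfia locus. Among the 582 regions of 1500 bp or more, 70.4% gave whole steps, so read equivalents of wide regions are less exact. The depth of the samples is unknown, the ChIP samples are pooled in 1 list, and no value below has a replicate error.

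SOX10 ChIP regions were dense at both loci, and denser at Nfib. The Nfib locus held 48.3 regions per Mb and the Nfia locus 25.0 regions per Mb, against 5.39 per Mb on the whole of chromosome 4 and 3.03 per Mb in the list. Nfib thus held 1.93 times as many regions as Nfia on the same length. The regions covered 47.6 kb of the Nfib locus (7.93% of its length) and 16.9 kb of the Nfia locus (2.81%), a ratio of 2.82. The summed read equivalents were 926 at Nfib and 288 at Nfia, a ratio of 3.22. The difference between the loci was therefore larger in covered length and in summed signal than in region number.

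**Figure D1:**
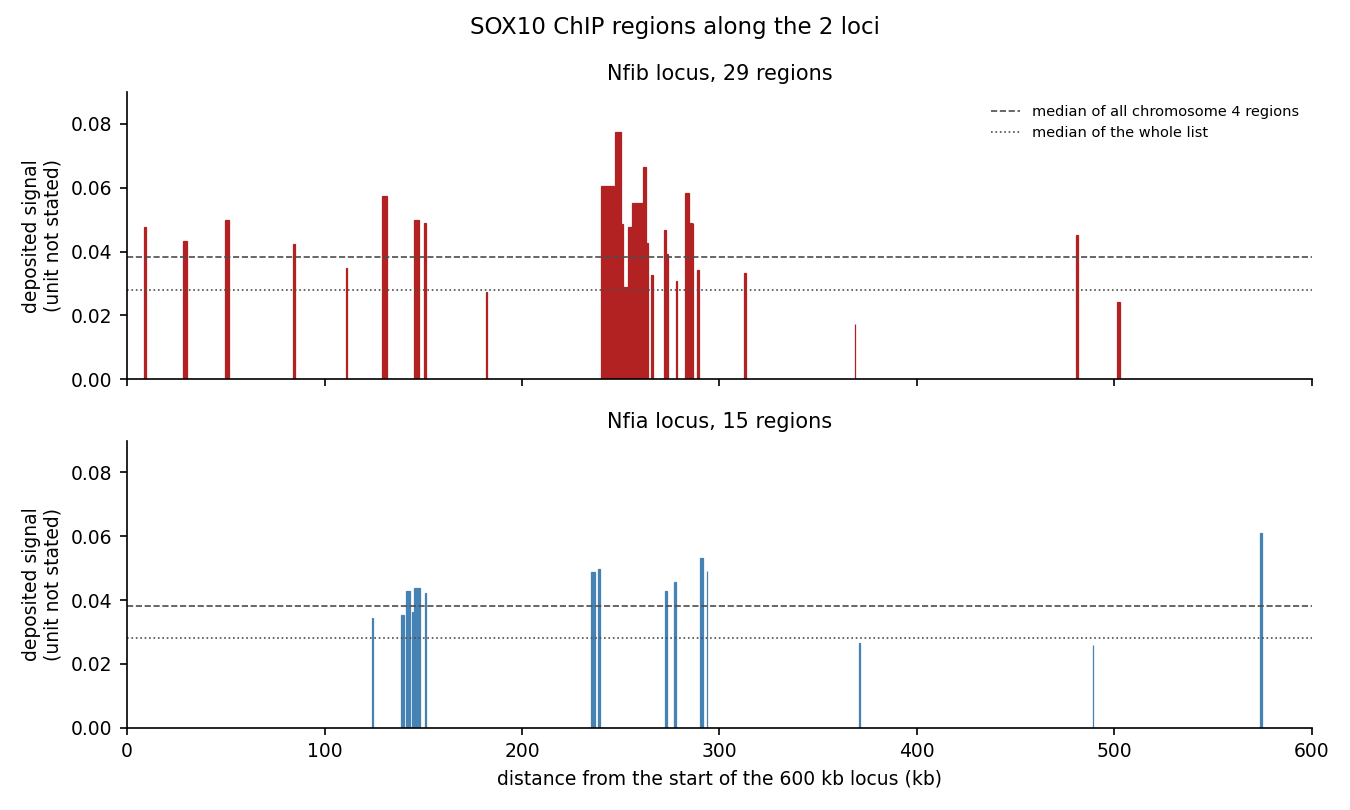
Position, width and deposited signal of the 29 Nfib and 15 Nfia regions, each drawn as a bar of its true width from the start of its 600 kb locus; lines give the median signal of chromosome 4 and of the whole list. The Nfib regions pile up in a block near 240 to 290 kb, whereas the Nfia regions stand in several small groups.

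To place the loci on their chromosome, chromosome 4 was divided into windows of 600 kb that do not overlap, in step with each locus. The window with the median number held 1 region, and 95 of 252 windows (37.7%) in step with Nfib held none. Nfib ranked 2 of 252 windows by region number, behind a window from 88.5 to 89.1 Mb with 30 regions. It ranked 1 of 252 both by covered length and by summed signal times width. Nfia ranked 11 of 253 by region number, with 13 of 253 windows (5.14%) holding at least as many, 9 by covered length and 8 by summed signal. Nfib was thus at the top end of chromosome 4 by each of these measures, and Nfia was high without standing apart from the windows next to it in order. The windows at ranks 1 to 12 on the Nfib grid held 12 to 30 regions. The far end of chromosome 4 was sparse, and on the Nfib grid no window beyond position 119700000 held more than 8 regions. Averages over the chromosome and shares of empty windows include this end. Among the 194 windows before it on each grid, 2 held at least as many regions as Nfib and 13 (6.70%) as many as Nfia. The ranks by region number stayed at 2 and 11.

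**Figure D2:**
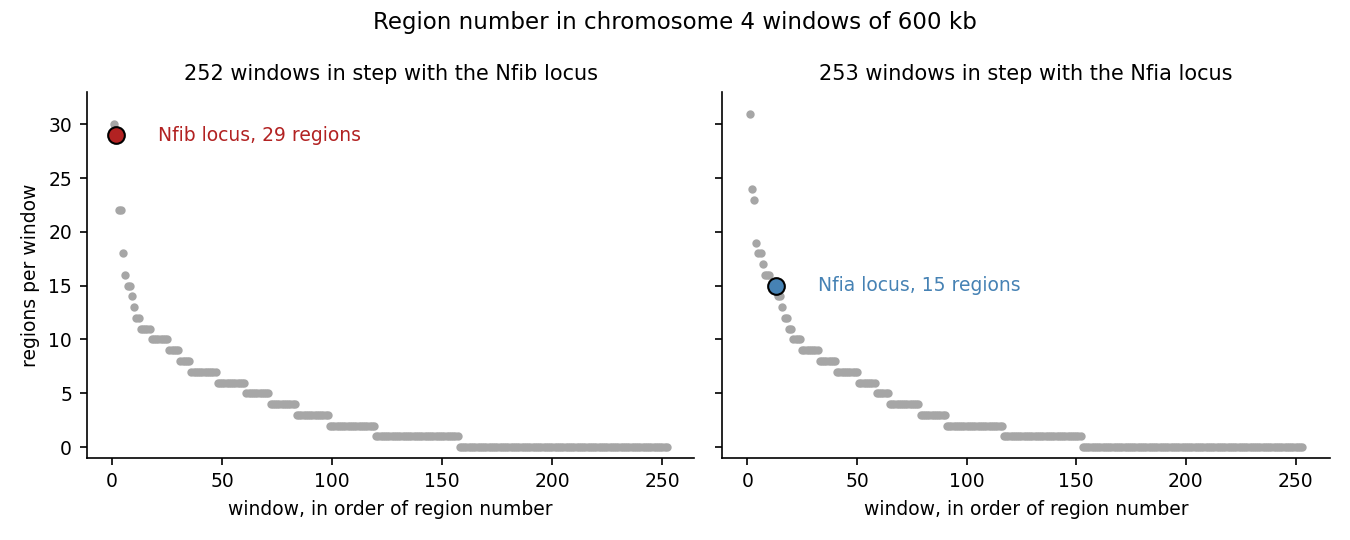
Number of SOX10 ChIP regions in each 600 kb window of chromosome 4, in falling order, on the grid in step with Nfib (252 windows) and with Nfia (253 windows). Nfib (29 regions) lies beside a single window with more, while Nfia (15 regions) lies within the upper slope of the curve; the highest window on the Nfia grid (31 regions) overlaps the Nfib locus.

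The Nfib locus was dominated by its run of 16 regions. This run joins regions less than 10 kb apart, from chr4:82139982-82189532, and spans 49.6 kb. It held 55.2% of the members of the locus, 64.7% of their covered length and 68.9% of their read equivalents. Regions covered 62.1% of the run. All 16 had a signal above the list median of 0.0280, and 12 of 16 were above the chromosome 4 median of 0.0383. Of the 791 other chromosome 4 regions, 75.5% were above the list median and 387 above the chromosome 4 median.

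Inside the run, the first 8 regions formed a nearly unbroken block. They spanned 23.7 kb (chr4:82139982-82163647), of which regions covered 96.6%, with gaps of 65 to 169 bp between them. In the whole list, 2.98% of 7909 gaps were under 200 bp, and the smallest was 53 bp. When regions less than 1 kb apart were joined over the whole list, this block was the longest of 7474 units. The second longest spanned 13.4 kb on chromosome 15 (chr15:50707683-50721043, 4 regions) and the third 11.5 kb on chromosome 4 (chr4:46587805-46599338, 2 regions). The block alone held 502 read equivalents, or 54.2% of the locus. Whether its 8 regions are separate sites or 1 broad domain was not tested.

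The block contained the widest and the strongest members of the locus. Its first region (chr4:82139982-82146836) was 6855 bp wide, the second widest of all 7929 regions, with a signal of 0.0607 and 161 read equivalents. The next (chr4:82146929-82150342) had the highest signal of the locus, 0.0775 over 3414 bp, which was 2.76 times the list median and ranked 9 among the 835 regions of chromosome 4. The sixth region of the block (chr4:82155859-82161315) was 5457 bp wide, the fourth widest of the list, with a signal of 0.0551 and 116 read equivalents. By read equivalents these 3 regions ranked 5, 11 and 8 in the list, and together they held 380 read equivalents, or 41.0% of the locus.

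The other members of the block were smaller and less even. A region of 1489 bp (chr4:82161381-82162869) reached 0.0664, the second highest signal of the locus. A region of 1915 bp (chr4:82153869-82155783) had 0.0478, a region of 477 bp (chr4:82150461-82150937) 0.0488, and the last of the block (630 bp, chr4:82163018-82163647) 0.0425. The weakest was a region of 2631 bp (chr4:82151069-82153699), whose signal of 0.0291 lay close to the list median although strong regions stood on both sides. Signal within the block therefore ranged from 0.0291 to 0.0775, although neighbours were less than 200 bp apart.

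**Figure D3:**
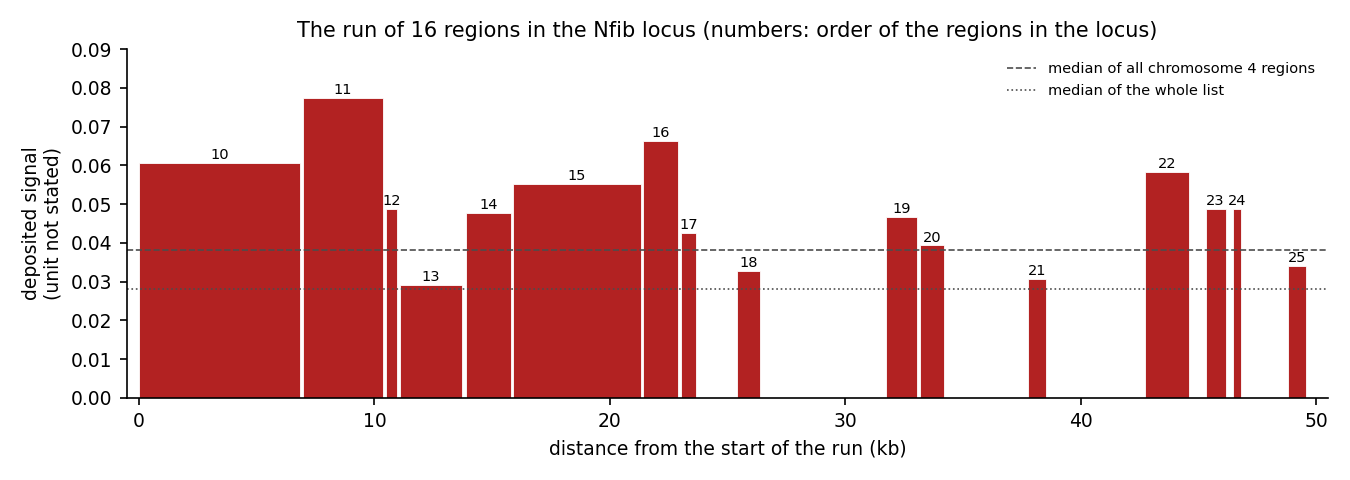
The 16 regions of the Nfib run, each as a bar of its true width at its distance from the start of the run, with its deposited signal as height and its order in the locus (10 to 25) above it. Regions 10 to 17 form the nearly unbroken block of 23.7 kb, with a dip at region 13 (0.0291); regions 18 to 25 have a smaller median width (909 against 2273 bp).

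The second part of the run held 8 regions with a median width of 909 bp, against 2273 bp in the block, and a median signal of 0.0431, against 0.0519. Its strongest member (chr4:82182708-82184571) had a signal of 0.0582 over 1864 bp and 42.0 read equivalents. A region of 846 bp (chr4:82185286-82186131, signal 0.0489) followed it after 714 bp, and one of 341 bp (chr4:82186459-82186799, signal 0.0488) came after a further 327 bp. These 3 neighbours were the members of this part above the 90th percentile of the list (0.0481). A pair of regions only 108 bp apart (chr4:82171702-82173027 and chr4:82173136-82174160) had signals of 0.0468 and 0.0394. The remaining 3 were at 0.0327 (chr4:82165403-82166373), 0.0308 (chr4:82177739-82178520) and 0.0341 (chr4:82188771-82189532).

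The other 13 Nfib regions lay on both sides of the run, with a median signal of 0.0433 and a median width of 1024 bp. On the side of lower coordinates, 9 regions stood 2.23 to 32.7 kb from one another. The strongest of them (chr4:82028935-82031624) had a signal of 0.0574 over 2690 bp and 59.8 read equivalents. It was the fifth strongest of the locus, and a region of 2863 bp followed it (chr4:82045074-82047936, signal 0.0497). On the side of higher coordinates there were 4 regions, with gaps of up to 112 kb. They included the weakest of the locus (chr4:82268465-82268731, 267 bp, signal 0.0174), which amounted to 1.80 read equivalents. The locus was thus filled unevenly, and 2 of its 12 steps of 50 kb held no region. Empty steps were not counted over chromosome 4. There, 37.7% of the 600 kb windows in step with Nfib were empty throughout, so empty steps are no trait of the locus.

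The Nfia locus had no counterpart of the Nfib block. Its 15 regions fell into 4 runs with 11 regions and 4 single regions, where Nfib had 2 runs and 11 single regions. The largest Nfia run held 5 regions over 12.9 kb (chr4:97438556-97451474), of which 56.5% was covered. A list-wide count found 56 runs with 5 or more regions. None of the gaps between Nfia regions was under 200 bp, a length that only 2.98% of gaps in the list had. At Nfia 5 of 12 steps of 50 kb held no region. This does not set Nfia apart, since 39.9% of the chromosome 4 windows in step with it were empty over all 600 kb.

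The largest Nfia run held the widest region of that locus but not the strongest. Its members, in order, had signals of 0.0352 (1694 bp, chr4:97438556-97440249), 0.0428 (1870 bp, chr4:97441193-97443062), 0.0363 (374 bp, chr4:97444320-97444693), 0.0439 (2747 bp, chr4:97445529-97448275) and 0.0422 (613 bp, chr4:97450862-97451474). The region of 2747 bp was the widest of the locus and had the most read equivalents, 46.7. All 5 were above the list median and below the 90th percentile of the list. Of the other chromosome 4 regions, 75.5% were above that median and only 25.0% above that percentile, so these counts do not set the run apart.

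The strongest Nfia region stood alone near the far edge of the locus. It was 646 bp wide (chr4:97874035-97874680) and had a signal of 0.0610, 2.18 times the list median, with 15.3 read equivalents. The next in signal were 2 regions of one pair, at 0.0533 (chr4:97590180-97591736, 1557 bp) and 0.0491 (chr4:97593493-97593913, 421 bp), and 2 of another pair, at 0.0497 (chr4:97538415-97539518, 1104 bp) and 0.0487 (chr4:97534685-97536866, 2182 bp). The third pair had signals of 0.0430 (chr4:97572334-97573285) and 0.0458 (chr4:97576963-97578105). The weakest was a region of 324 bp (chr4:97789103-97789426) with a signal of 0.0258 and 3.24 read equivalents. The pairs lay in the middle of the locus, and 3 of the 4 single regions followed them at higher coordinates.

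Spacing differed most between the loci at short distances. The median gap was 3.88 kb at Nfib (quartiles 0.164 and 20.7, 28 gaps) and 7.88 kb at Nfia (quartiles 1.60 and 65.7, 14 gaps), against 30.1 kb on chromosome 4. Short median gaps were not particular to these loci. The window from 88.5 to 89.1 Mb had 4.74 kb, and that from 102.1 to 102.7 Mb 7.29 kb. Other windows among the 12 with most regions reached 18.8 kb on the Nfib grid and 22.1 kb on the Nfia grid. Of the Nfib gaps, 8 of 28 were under 200 bp and 16 of 28 under 10 kb. Of the Nfia gaps, 0 of 14 were under 200 bp and 7 of 14 under 10 kb. The shares under 200 bp and under 10 kb were 4.57% and 29.2% for the other chromosome 4 gaps. In the list they were 2.98% and 22.7%. Having 0 of 14 gaps under 200 bp thus does not set Nfia apart. The ratio of the median gaps, Nfib to Nfia, was 0.493, and it turned to 1.46 when regions less than 1 kb apart were joined at both loci. Joining drops the gaps under 1 kb by definition, 10 of 28 at Nfib and 2 of 14 at Nfia. The value of 1.46 is therefore no separate evidence on spacing. The longest gap was 112 kb at Nfib and 118 kb at Nfia.

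**Figure D4:**
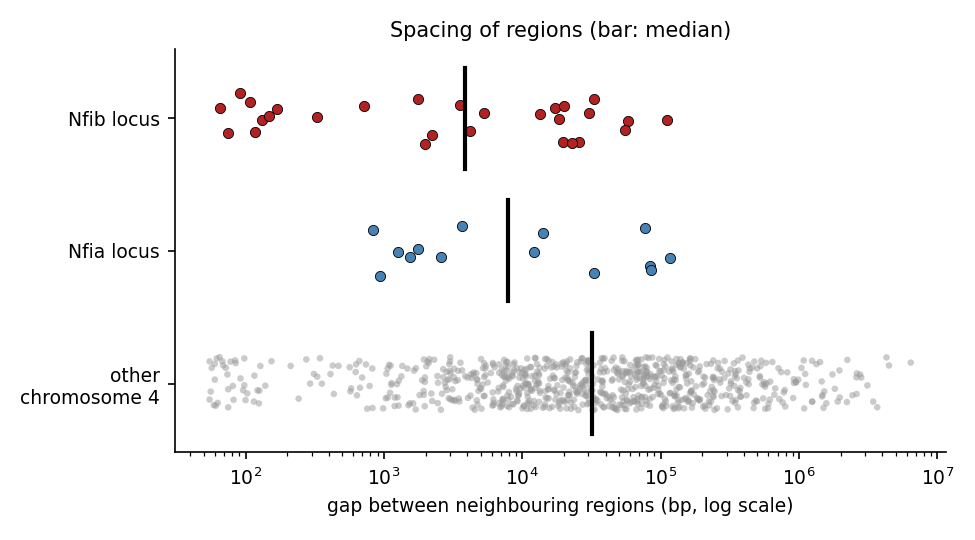
Gap to the next region for the Nfib locus (28 gaps), the Nfia locus (14 gaps) and the other chromosome 4 regions, on a log axis, 1 point per gap, with the median as a bar. The 8 Nfib gaps under 200 bp form a group at the left. Nfia has none, and among the other chromosome 4 gaps 4.57% are that short.

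In width, the loci were close to each other at the median and differed in their widest members. The median width was 1025 bp at Nfib (quartiles 782 and 1864, range 267 to 6855) and 952 bp at Nfia (quartiles 597 and 1626, range 324 to 2747). The other 791 regions of chromosome 4 had a median of 804 bp. Regions of 1500 bp or more numbered 10 of 29 at Nfib and 5 of 15 at Nfia, which is 34.5% and 33.3%. The corresponding share was 14.9% among the other chromosome 4 regions and 7.34% in the list. It was not particular to these loci, since 11 of 30 regions were that wide in the window from 88.5 to 89.1 Mb. The 3 widest Nfib regions, of 3414 to 6855 bp, were all in the block of the run. The order of the medians turned in the central 300 kb of both loci, where the ratio of Nfib to Nfia was 0.970, and among the 50% of the list with the highest signal, where it was 0.954.

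Median signal was above that of the list at both loci, and which locus was higher turned with the set of regions taken. The median was 0.0468 at Nfib (quartiles 0.0341 and 0.0497, range 0.0174 to 0.0775) and 0.0430 at Nfia (quartiles 0.0358 and 0.0489, range 0.0258 to 0.0610). The ratio of 1.09 fell to 0.993 among regions under 1500 bp, to 1.00 (below 1 before rounding) in the central 300 kb and to 0.990 in 1 Mb around each locus. Above the list median were 26 of 29 Nfib and 13 of 15 Nfia regions, where 75.5% of the other chromosome 4 regions were. Above the 90th percentile of the list were 12 of 29 Nfib regions (41.4%) and 5 of 15 Nfia regions (33.3%), against 25.0% of the other chromosome 4 regions and 10.0% of the list. These shares were not particular to the loci. They were 14 of 30 in the window from 88.5 to 89.1 Mb and 8 of 16 from 45.1 to 45.7 Mb, but 5 of 22 from 32.1 to 32.7 Mb. Much of the height over the list was thus shared with the rest of chromosome 4, whose 791 regions had a median of 0.0377, against 0.0280 in the list. With the 2 loci included, the chromosome 4 median was 1.37 times that of the list. Relative to the other chromosome 4 regions, the median signal was 1.24 times as high at Nfib and 1.14 times as high at Nfia. Those other regions include the sparse far end of the chromosome. On the Nfib grid, the windows there with at least 5 regions had median signals of 0.0237 (chr4:149100000-149700000) and 0.0275 (chr4:149700000-150300000). The 2 ratios were not computed without this end. The number of DNA copies of chromosome 4 in these tumor cells was not measured in the list, and its part in these values was not tested.

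**Figure D5:**
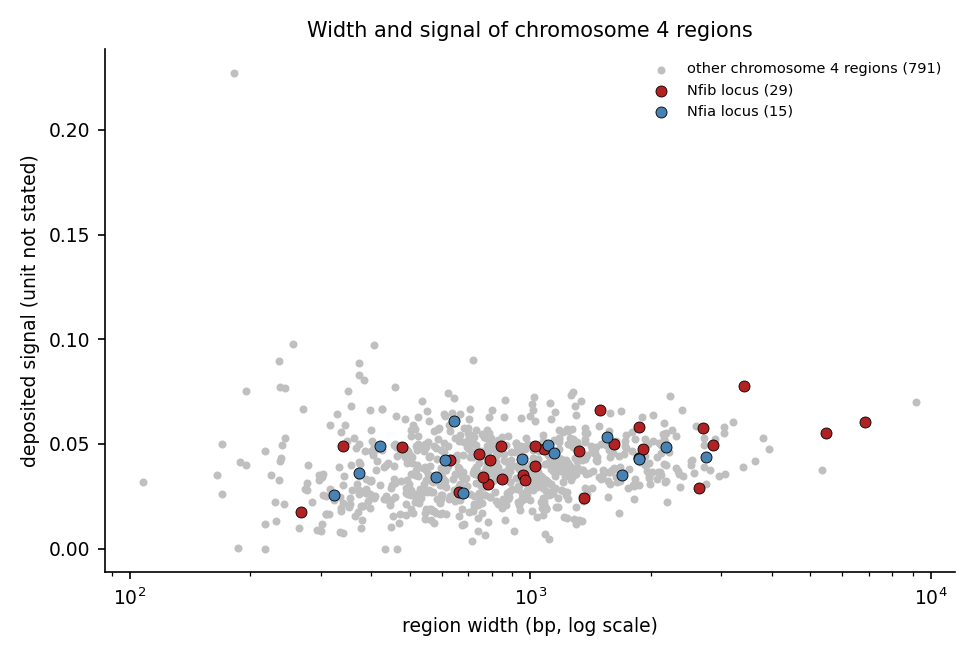
Width (log axis) and deposited signal of chromosome 4 regions, with 29 Nfib, 15 Nfia and 791 other regions. Most Nfib and Nfia points lie inside the cloud of the other regions; 2 Nfib regions of 5457 and 6855 bp lie at its wide end.

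Wide regions had the higher median signal at Nfib, with little difference at Nfia. At Nfib the 10 regions of 1500 bp or more had a median signal of 0.0525 (range 0.0291 to 0.0775) and the 19 narrower ones 0.0423 (range 0.0174 to 0.0664). At Nfia the 5 wide regions had a median of 0.0439 (range 0.0352 to 0.0533) and the 10 narrower ones 0.0426 (range 0.0258 to 0.0610). Among the other chromosome 4 regions these medians were 0.0415 and 0.0366. The ranges of wide and narrow regions overlapped at Nfib, and at Nfia the range of the wide ones lay inside that of the narrow ones. The medians of narrow regions were nearly equal at Nfib and Nfia, and those of wide regions were not.

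By median signal over its regions, Nfib ranked 8 of 71 chromosome 4 windows with at least 5 regions, and Nfia 17 of 64. The medians of such windows reached 0.0504 on the Nfib grid and 0.0529 on the Nfia grid. Nfib was therefore at the top for the amount of sequence covered and less far up for the height of its regions. The window most like it, from 88.5 to 89.1 Mb, had 30 regions with a median signal of 0.0476, a median width of 1037 bp and 739 read equivalents. It covered 40.4 kb, its widest region was 5341 bp and its largest run held 11 regions. The windows next in order, at 101.7 to 102.3 Mb and at 32.1 to 32.7 Mb, both held 22 regions. Their median signals were 0.0401 and 0.0395, and they covered 25.6 and 24.2 kb. These 2 windows fell further behind Nfib in covered length than in region number.

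The edges of the windows were set by the rule and cut the surroundings differently. The nearest region before the Nfib locus lay 154 kb away (signal 0.0407, 813 bp) and the first member 8.68 kb inside (signal 0.0478, 1081 bp). The nearest after it lay 21.4 kb away (signal 0.0345, 570 bp) and the last member 97.3 kb inside (signal 0.0242, 1362 bp). At Nfia the nearest region before the locus lay 10.8 kb away (signal 0.0321, 1086 bp) and the first member 124 kb inside (signal 0.0343, 580 bp). After the last Nfia member, 25.3 kb inside, no region followed for 555 kb beyond the edge (signal 0.0302, 1799 bp). Between the loci, over 14.8 Mb, there were 97 regions (6.55 per Mb) with a median signal of 0.0417 and a median width of 866 bp. These 97 regions include the 30 of the window from 88.5 to 89.1 Mb, which was as dense as Nfib. The sequence between the loci was therefore much sparser than the loci only on average, with a median signal slightly below that of Nfia.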

How the data were processed

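The authors deposited 1 region list for 2 SOX10 ChIP samples against 1 control, with a signal value per region. The submitters' processing notes name the build mm9 and the tools MACS2 2.1.1, SAMtools 1.3.1, Bowtie 0.12.8 and FastQC, with no parameters. How the signal was computed, which threshold was used and how duplicates were treated is not given in the sources used here. H3K27ac samples and inputs were not used here.

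Starts were written 1-based. A region counted for a window it overlapped by at least 1 base. Gaps run from the end of one region to the start of the next, and runs join gaps under 10 kb. Windows of 600 kb covered chromosome 4 from 3 Mb to the last listed end, without partial windows, and medians were taken in windows with at least 5 regions. The members and all rules were chosen with earlier results of these data known. In each locus the text names all regions of the largest run, the 5 strongest, the widest and the weakest, by a fixed rule, and some further regions chosen after their values were seen. No test was run, because the list is 1 pooled result and the rule used its values. The calculations were done in Python 3.11.15 with pandas 2.3.3 and tested on simulated data with planted windows.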

Additional observations from a re-analysis of the deposited data

How the results depend on the processing

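No paired analysis was possible because both ChIP samples share a single list, which also means that neither could be left out. Of 103 values recomputed for 16 results, 84 stayed within 1.5 times the value given (counts and ratios) or within its exact binomial interval (shares of windows and medians), 12 moved further and 7 ratios of Nfib to Nfia changed side of 1. These intervals treat windows, or neighbouring regions of 1 pooled list, as independent. They served only to label changes and measure no replicate error, so a value that stayed is not thereby shown to be stable. The 84 include values taken with signal above 0. Those could not change, since no region of either locus had a signal of 0. The interval of a median gap was wide and held values from 0.714 to 19.1 kb at Nfib and 3.13 to 32.8 kb at Nfia. Region numbers at Nfib were 12 among the 10% with the highest signal, 19 with gaps under 1 kb joined and 13 with runs within 10 kb counted once. At Nfia they were 5 among the 10% with the highest signal, 8 with runs counted once and 8 in the central 300 kb. Among windows of all chromosomes, 0.0945% held at least as many regions as Nfib and 0.802% as many as Nfia. The ratio of median signal was 0.993 under 1500 bp, 1.00 (0.9998) in the central 300 kb and 0.990 in 1 Mb around the loci. The ratio of median width was 0.954 among the 50% with the highest signal and 0.970 in the central 300 kb. The ratio of median gap was 0.0591 in the central 300 kb. With gaps under 1 kb joined it was 1.46, where joining by definition drops a larger share of the gaps at Nfib than at Nfia. It was 2.53 with the Nfib run left out and all Nfia runs kept, a value that follows from the definition of a run by short gaps and supports nothing. The largest Nfib run had 9 regions with a gap limit of 5 kb and 6 with gaps under 1 kb counted once, and the largest Nfia run 3 in the latter way. Joining regions and taking a shorter stretch or fewer regions lower counts by construction; the causes of the other changes were not tested. The signal of narrow regions rests on few read equivalents, which limits their order.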

Other observations

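The long joined unit at Nfib was part of a small set in the list. With regions less than 1 kb apart joined, the 6 longest units lay on chromosomes 4 and 15, with spans of 23.7 kb at Nfib and 13.4, 11.5, 10.1, 9.94 and 8.47 kb elsewhere. Both units on chromosome 15 (chr15:50707683-50721043 and chr15:50751050-50761161) held 4 regions, and those at chr4:88700650-88710588 and chr4:88579669-88588135 held 4 and 3. Their width-weighted signals ranged from 0.0414 to 0.0706, with 0.0568 at Nfib, so the Nfib unit was the longest of the 6 and not the strongest. At Nfia the longest joined unit spanned 4.51 kb (chr4:97438556-97443062) and ranked 20 of 7474 in length.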
